A study of Mus musculus with 33 samples.

Results

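The flank upstream of the Trav array is the stretch chr14:51400001-52420000 (mm10), 1.02 Mb of mouse chromosome 14 that ends where the first variable genes of the Tcra–Tcrd locus begin. Its members were chosen by position alone, as all 204 bins of 5 kb in that stretch of the 24981 bins of the chromosome, and every read with the midpoint of at least 1 fragment in them was taken. In all, 14773 of 1962248 reads met that rule, 11647 in WT and 3126 in EACBE-/- libraries. The stretch was described as holding olfactory receptor genes, and the mm10 annotation places 5 of these there, Olfr221 and Olfr1510 to Olfr1513, among 34 protein-coding genes. The others are 3 genes of the ribonuclease A family (Ang4, Ear6 and Rnase13), the vomeronasal receptors Vmn2r88 and Vmn2r89, and 24 genes of other kinds, so olfactory receptors were a minority of its genes.

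The reads came from 3C-HTGTS, in which chromatin is cross-linked, cut with MboI at GATC and ligated, and ligation products that contain a chosen bait fragment are amplified and sequenced. Each read used here was listed with 2 fragments besides the bait and was taken as a 3-way contact. The 2 fragments could lie close to each other or to the bait. The WT samples were CD4+CD8+ double-positive (DP) thymocytes of CBE+/+Rag1-/- mice and the EACBE-/- samples were DP thymocytes of CBE-/-Rag1-/- mice, all C57BL/6. EACBE is a CTCF-binding element immediately downstream of the enhancer Eα. Every animal lacked Rag1, so neither genotype rearranges its receptor genes, and the DP cells were induced by injecting anti-CD3 at 3 weeks of age and taking thymi 10 days later. Liver cells of CBE+/+Rag1-/- mice made up the third sample type. WT thymocytes had 3 libraries for each of the baits Eα, TEAp (the promoter of the Jα array), INT2 (an insulator between the Vδ and Dδ segments), Trdd2 (a Dδ segment) and Trav17 (a CTCF site upstream of the Vα gene of that name), and 1 library for a second Eα bait. EACBE-/- thymocytes had 3 each for Eα, TEAp and Trav17. The labels do not say which libraries came from which mice, so p-values measure the spread between libraries. Libraries held from 14307 to 328127 reads, of which 145 to 1898 touched the flank.

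Olfactory and vomeronasal receptor genes lie in clusters, are expressed in sensory neurons of the nose and are silent in most other tissues. Genes for basic cell functions, such as RNA binding, transcription and chromatin remodelling, are in contrast active in nearly every cell type. Chromosome conformation assays generally find that contacts fall with distance along the chromosome and that active genes tend to contact other active chromatin. The flank borders the Trav array and lies far from the baits: the bait fragments sat 1.38 Mb (Trav17), 1.65 Mb (INT2), 1.70 Mb (Trdd2), 1.73 Mb (TEAp) and 1.81 Mb (both Eα baits) beyond its downstream end.

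The flank holds 2663 MboI fragments, and 1224 of them were caught in at least 1 of the 22 libraries with read lists. The 6 fragments below led by distinct contacts among those short enough to print whole and free of annotated UTRs, and are shown because they are the pieces of DNA that the flank contacts consisted of. A distinct contact, or distinct pair, is a pair of fragments with the same aligned ends counted once per library. Each sequence is on the plus strand of mm10 (GRCm38) and runs from 1 MboI site through the next, with the sites in capitals.
Hnrnpc upstream, chr14:52104387-52104565: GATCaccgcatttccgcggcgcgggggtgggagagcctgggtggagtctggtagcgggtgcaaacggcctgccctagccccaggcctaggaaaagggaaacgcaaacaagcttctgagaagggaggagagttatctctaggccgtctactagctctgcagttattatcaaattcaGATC
Zfp219 exon, chr14:52008756-52008950: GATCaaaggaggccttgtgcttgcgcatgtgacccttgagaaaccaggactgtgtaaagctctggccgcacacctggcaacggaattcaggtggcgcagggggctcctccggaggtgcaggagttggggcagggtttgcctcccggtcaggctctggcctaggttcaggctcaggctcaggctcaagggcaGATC
Arhgef40 upstream, distal, chr14:51984088-51984238: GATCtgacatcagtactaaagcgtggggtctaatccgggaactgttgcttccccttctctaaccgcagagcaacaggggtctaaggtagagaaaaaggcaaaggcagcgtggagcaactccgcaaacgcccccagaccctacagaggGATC
Arhgef40 upstream, proximal, chr14:51984241-51984489: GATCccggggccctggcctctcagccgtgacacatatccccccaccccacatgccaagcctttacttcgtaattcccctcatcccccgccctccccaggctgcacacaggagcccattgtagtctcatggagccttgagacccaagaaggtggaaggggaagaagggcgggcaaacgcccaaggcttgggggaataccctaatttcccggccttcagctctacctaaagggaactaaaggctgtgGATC
Sall2 exon, chr14:52314651-52314809: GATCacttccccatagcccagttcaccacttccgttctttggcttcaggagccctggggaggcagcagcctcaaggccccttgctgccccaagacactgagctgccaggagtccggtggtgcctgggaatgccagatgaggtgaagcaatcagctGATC
Rpgrip1 intron, chr14:52137977-52138162: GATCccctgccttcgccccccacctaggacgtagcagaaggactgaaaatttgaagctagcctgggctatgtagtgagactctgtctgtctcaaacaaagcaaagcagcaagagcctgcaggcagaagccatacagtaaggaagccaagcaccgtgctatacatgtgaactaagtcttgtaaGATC

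The fragment upstream of Hnrnpc, whose midpoint lay 446 bases from the gene's start, had 35 distinct pairs and 97 reads in 11 libraries, and no flank fragment had more distinct pairs. The fragment within an exon of Zfp219 had 32 distinct pairs and 110 reads in 12 libraries. Both fragments upstream of Arhgef40, 558 and 356 bases from its start, had 28 and 27 distinct pairs in 12 and 11 libraries, and the pieces of Sall2 and Rpgrip1 had 19 each. The median over all fragments caught was 3 distinct pairs, so even the leading pieces rested on few independent ligations. Fragments across the shared start of Rab2b and Tox4 were caught as often, with 35 and 34 distinct pairs in 16 and 17 libraries, and their sequences are not shown because they overlap UTRs.

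The share of reads that touched the flank depended on the bait. With the Trav17 bait it was 1.26%, 1.05% and 1.38% of all reads in the 3 WT libraries, a mean of 1.23% ± 0.16 (SD, n = 3). With the Eα bait it was 1.04%, 1.02% and 0.904% (0.987% ± 0.072), and the second Eα bait gave 0.848% in its only library, below the lowest of these. The share was 0.799%, 0.750% and 0.777% with Trdd2 (0.775% ± 0.025), and 0.619%, 0.734% and 0.658% with TEAp (0.671% ± 0.058). INT2 had the lowest share, with 0.523%, 0.452% and 0.496% (0.490% ± 0.036). On reads, no pair of these 5 baits with 3 libraries overlapped. The order on reads did not follow distance along the chromosome, since the Eα baits were the farthest from the flank and ranked above Trdd2, TEAp and INT2. Over the 5 baits the shares differed more than replicates did (exact permutation test over 1401400 partitions, p = 7.14e-07, the smallest it allows), and they did so without INT2 (p = 6.49e-05). Each of the 10 pairs of baits taken alone reached p = 0.1, also after Benjamini-Hochberg adjustment, which is the smallest p that an exact permutation test of 3 against 3 libraries can give. In distinct pairs, which INT2 lacks, neighbouring baits overlapped. Shares were then 1.14% to 1.38% with Trav17, 1.03% to 1.26% with Eα, 0.893% to 1.13% with Trdd2 and 0.591% to 0.898% with TEAp. The second Eα bait gave 0.901%, within the range of Trdd2. The 4 baits with 3 libraries still differed in distinct pairs (exact permutation test, p = 0.00409). Among WT libraries with read lists no flow cell held more than 1 bait, so bait and flow cell cannot be told apart. Wilson 95% intervals spanned 1.14% to 1.39% for the first Trav17 library and 0.429% to 0.475% for the deepest INT2 library, and a count of 0 would have allowed a share of up to 0.0210% in the shallowest library. Reads carry no molecular identifiers, so these limits cover counting error only.

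**Figure D1:**
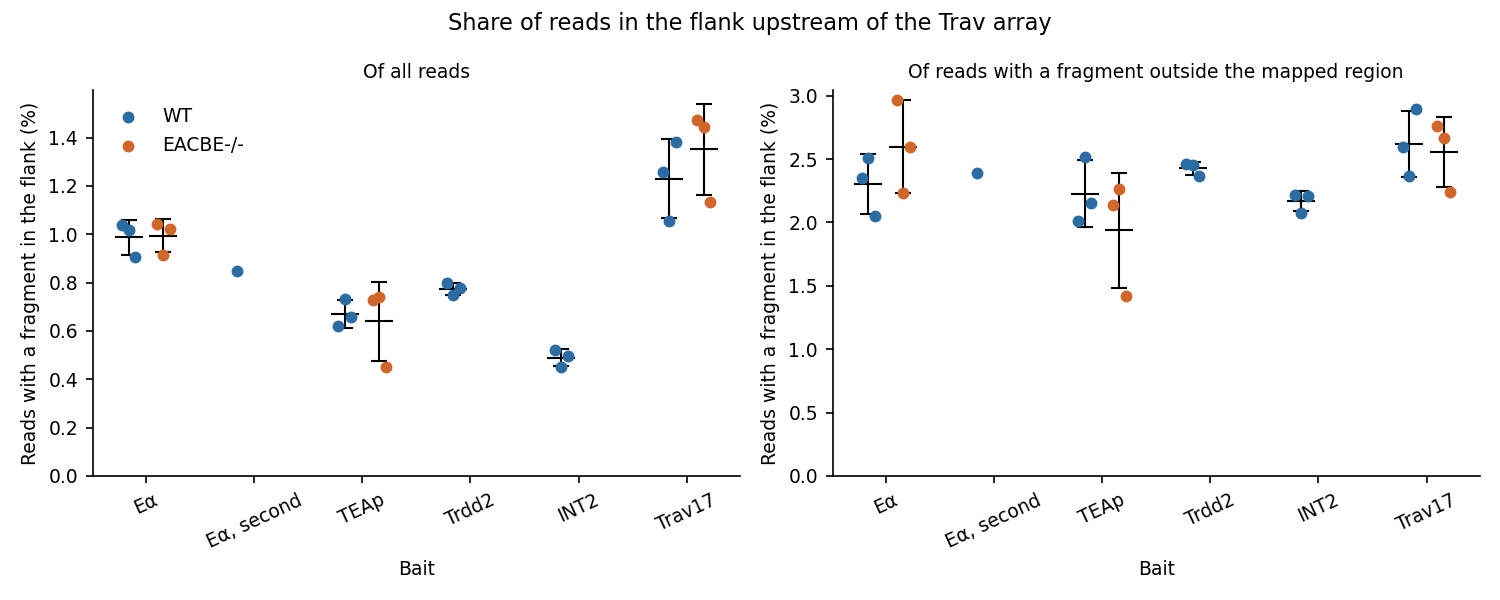
Percent of reads with a fragment in the flank, by bait, for WT (blue) and EACBE-/- (orange) libraries; points are libraries and bars the mean ± SD of 3 libraries. On the left, of all reads, WT baits run from 0.490% (INT2) to 1.23% (Trav17) without overlap; on the right, of reads with a fragment outside the mapped region, WT means lie between 2.17% and 2.62%.

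The ordering depended on the reads that were counted. Without reads that had a fragment in the 5 kb window of the bait or a neighbouring window, the INT2 share was 0.964% ± 0.258 (range 0.679% to 1.183%), which overlapped Eα, Trdd2 and TEAp, and TEAp was lowest with 0.689% ± 0.063. Trav17 stayed highest with 1.41% ± 0.20, and the baits still differed (exact permutation test, p = 0.00184). When only reads with at least 1 fragment outside chr14:53740001-54300000 (the mapped region, from Trav17 to Eα) were counted, the flank took 2.62% ± 0.26 with Trav17, 2.43% ± 0.05 with Trdd2, 2.30% ± 0.23 with Eα, 2.23% ± 0.26 with TEAp and 2.17% ± 0.08 with INT2 (SD, n = 3 each). The second Eα bait gave 2.39%. On this scale the difference between baits did not pass the test (exact permutation test, p = 0.122). The ranges of 8 of the 10 pairs of baits overlapped, and the exceptions were INT2 against Trdd2 and INT2 against Trav17 (exact permutation test, p = 0.1 each, 0.5 after adjustment).

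The flank was caught more often than the chromatin on its far side and far less often than that around the locus. In fragments per Mb, WT libraries had 3.86 times as many in the flank as in the equally long upstream neighbour (chr14:50380001-51400000), higher in 16 of 16 libraries. The flank had 0.312 times the density of the Trav array (chr14:52420001-53740000) and 0.0457 times that of the downstream flank (chr14:54300001-55320000), lower in 16 of 16 libraries in both cases. Each ratio differed from 1 (exact sign-flip test over 16 libraries, p = 3.05e-05, the smallest it allows), and with 1 mean per bait each reached p = 0.0312 in the exact sign-flip test, the smallest for 6 baits. The Trav array is rich in repeated gene copies, and 29.5% of its MboI fragment ends had a 32-base sequence found once in the genome, against 66.1% in the flank. Per unique fragment end the flank therefore had 0.135 times the density of the Trav array. By bait, the flank held 0.209 ± 0.007 of the Trav array's density with Trav17 and 0.429 ± 0.083 with Trdd2 (SD, n = 3). Of all baits, Trav17 lay nearest to the array.

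**Figure D2:**
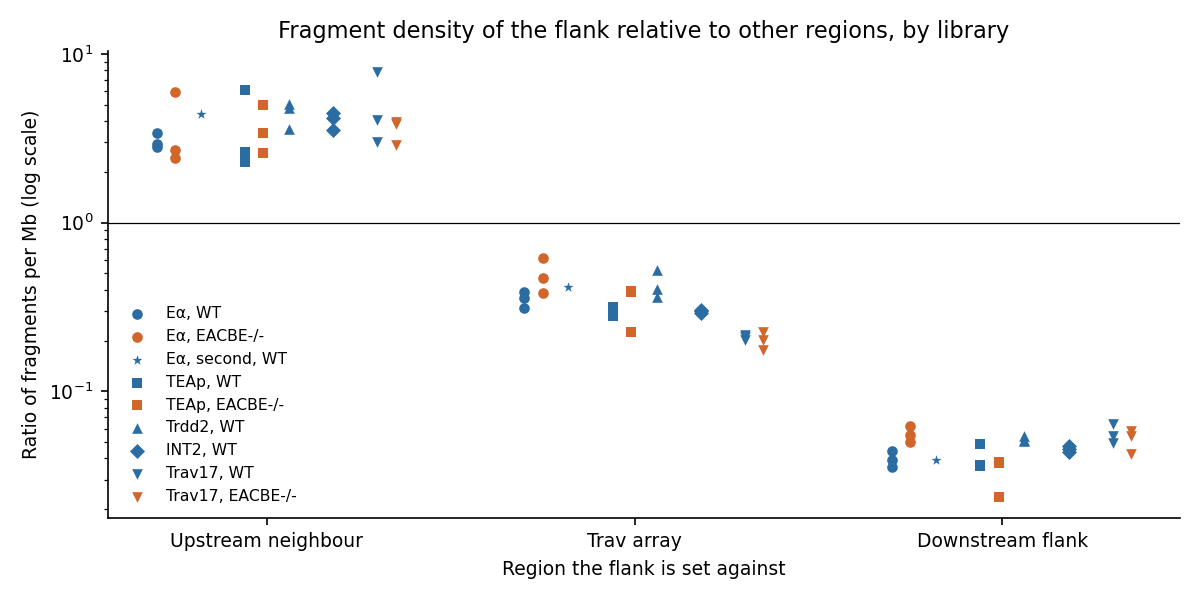
Ratio of fragments per Mb in the flank to 3 other regions of chromosome 14 (log axis; the line marks 1), each point a library, shape by bait and colour by genotype. All libraries lie above 1 against the upstream neighbour and below 1 against the Trav array and the downstream flank.

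The second fragment of a flank read lay most often in the mapped region or in the flank itself. Over the 13 WT libraries of baits other than INT2, a median of 36.4% of flank reads (range 23.3% to 56.9%) had their partner in the mapped region and 28.5% (17.5% to 50.4%) had both fragments in the flank. The rest lay further downstream on the chromosome (11.6%), in the downstream flank (10.6%), upstream of the flank (7.56%) and in the Trav array (2.52%), as medians. These classes differ in length, and 29.5% of the Trav array's MboI fragment ends were unique in the genome, against 66.1% in the flank. The Trav array, though it borders the flank, had the lowest median of these classes. In the deep Trav17 library, replicate 3, it reached 10.5%, against 2.60% and 2.52% in the other Trav17 libraries.

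INT2 differed from the other baits in its partners. In its libraries 89.0%, 78.6% and 81.2% of flank reads had the partner in the mapped region, and 3.03%, 9.72% and 7.73% had both fragments in the flank. Between 67.1% and 79.6% of INT2 flank reads had the partner in the 5 kb window of the bait fragment or a neighbouring window, against 1.38% to 12.4% with the other baits. All INT2 reads showed the same feature, since 84.3% to 87.4% of them had a fragment there, against 7.40% to 31.4% of reads with other baits. Its libraries were held as counts per pair of 5 kb windows, and no distinct pairs could be counted.

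**Figure D3:**
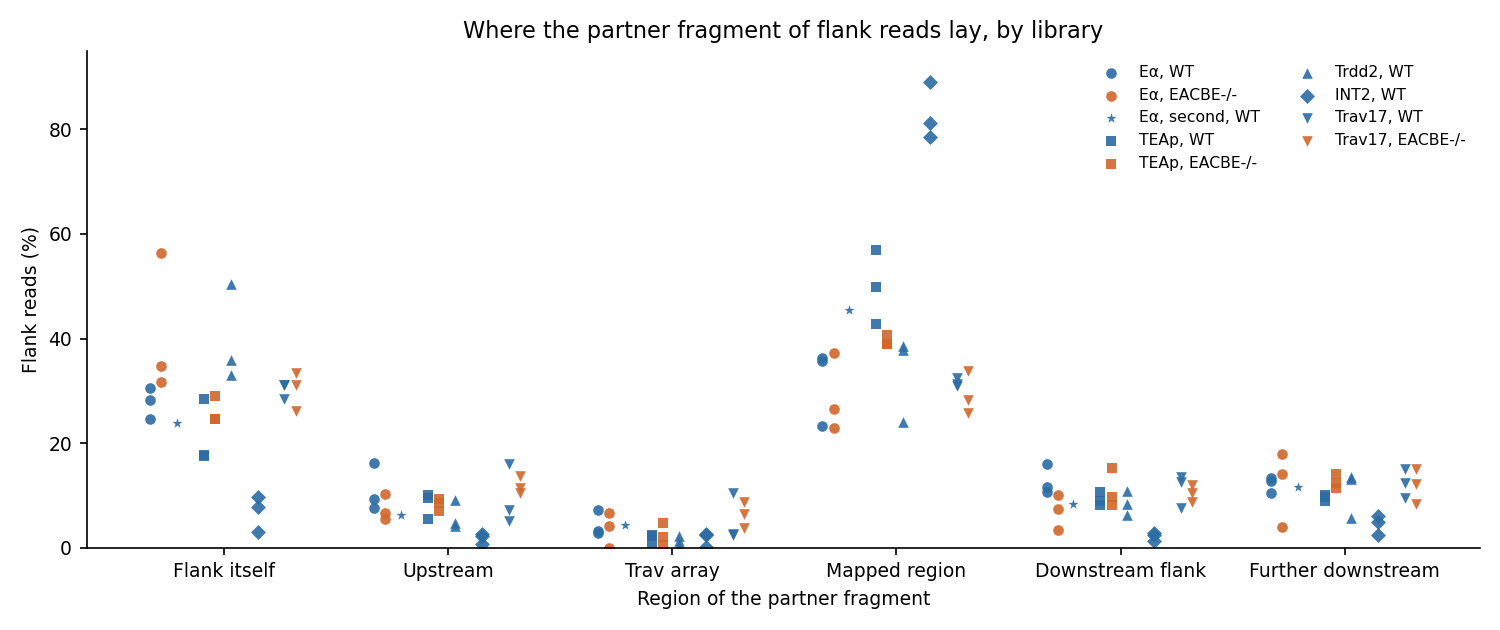
Percent of the flank reads of each library whose other fragment lay in the flank itself, upstream of it, in the Trav array, in the mapped region, in the downstream flank or further downstream; shape marks the bait, blue WT and orange EACBE-/-. The 3 INT2 libraries stand at 78.6% to 89.0% in the mapped region, and no other library exceeds 56.9%.

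Flank contacts that left the flank had their partner in the mapped region less often than those of the regions nearer the baits. Leaving out reads within each region, 52.4% ± 9.6 of flank reads (SD, n = 13 WT libraries) had the partner in the mapped region. The value was 76.5% ± 3.7 for the Trav array and 82.2% ± 4.2 for the downstream flank, higher than in the flank in 13 of 13 libraries (exact sign-flip tests, p = 0.000244, adjusted over 3 regions 0.000366). For the upstream neighbour it was 41.2% ± 14.1, lower than in the flank in 10 of 13 libraries (exact sign-flip test, p = 0.0554), and with distinct pairs lower in 12 of 13 (exact sign-flip test, p = 0.0210). Of the mapped-region partners of flank reads, 28.6% lay within 20 kb of the bait, against 25.2% for partners of downstream flank reads (higher in 9 of 13 libraries, exact sign-flip test, p = 0.161).

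Reads with both fragments in the flank joined places close to each other. The median distance between the fragments' midpoints had a median of 0.889 kb over the WT libraries, 61.8% of such reads spanned at most 10 kb and 8.89% spanned more than 100 kb. For reads within the downstream flank these values were 1.11 kb, 63.9% and 15.1%, so short spans were not particular to the flank. Such reads made up 29.3% ± 8.4 of flank reads, fewer than the 37.6% ± 3.3 of the downstream flank (lower in 12 of 13 libraries, exact sign-flip test, p = 0.00220). With distinct pairs the shares were 29.9% and 36.1% (p = 0.00195, exact sign-flip test).

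Within the flank, contacts were concentrated in the block from Mettl17 to Sall2. This block (chr14:51880001-52330000, 450 kb) is 44.1% of the flank's bins and held a median of 81.7% of its fragments over the 25 libraries (range 64.8% to 91.5%). The 480 kb before it, from Vmn2r88 to Ear6, held 7.63% (1.80% to 19.1%), and the last 90 kb, with Olfr1513 to Olfr1510, held 9.57% (4.89% to 27.9%). In the first block 46.1% of MboI fragment ends were unique in the genome, against 88.9% in the Mettl17 to Sall2 block and 75.1% in the olfactory receptor block. The Mettl17 to Sall2 block holds genes such as Hnrnpc, Chd8 and Supt16, and also Olfr221, Rnase13 and Rpgrip1. Per unique end, the density of the Vmn2r88 to Ear6 block was 0.143 times that of the Mettl17 to Sall2 block as a geometric mean over 16 WT libraries, lower in all 16. The olfactory receptor block reached 0.629 times (lower in 13 of 16). These blocks were drawn after the profile had been seen, so their ratios are given as a description, with no test.

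**Figure D4:**
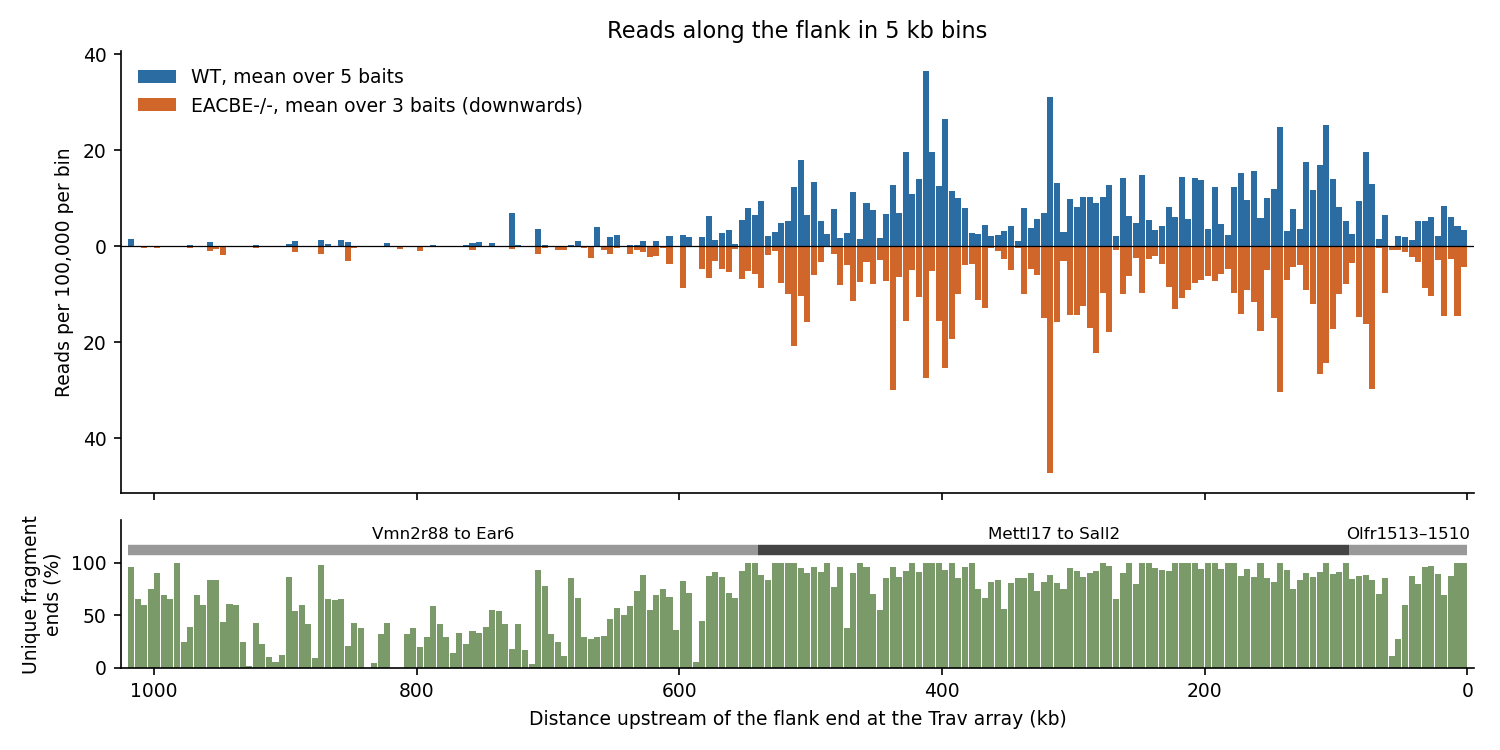
Top, reads with a fragment in each 5 kb bin per 100000 reads of the library, along the flank from its far end (left) to the Trav array (right); WT, the mean over the 5 baits with read lists, points up and EACBE-/-, the mean over 3 baits, points down. Below, the percent of MboI fragment ends in the bin whose 32-base sequence occurs once in the genome, with the gene blocks above; reads fill the Mettl17 to Sall2 block, which held a median of 81.7% of flank fragments.

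The gene lists followed the blocks. The vomeronasal receptors, which detect pheromones, had 8 distinct pairs in all 22 libraries with read lists, 0.125 per unique fragment end, and Vmn2r88 had 0 reads. The ribonuclease A family, secreted host defence proteins among others, had 29 distinct pairs, 0.492 per unique end. The 5 olfactory receptor genes had 135 distinct pairs, 0.931 per unique end, and each was read: Olfr1511 most often with 129 reads and Olfr1512 least often with 34. The 24 other genes had 2645 distinct pairs, 1.22 per unique end. Bins that overlap olfactory receptor genes (13) had 0.885 times the fragments per MboI fragment of bins with other protein-coding genes (135), and were higher in 8 of 16 WT libraries (exact sign-flip test, p = 0.590). Per unique fragment end the ratio was 0.680, lower in 13 of 16 (exact sign-flip test, p = 0.0110), while without the Trav17 bait it was 1.05 and without the libraries numbered 2 it was 1.11, both per MboI fragment. Bins without a protein-coding gene (56) had 0.506 times as many, lower in 16 of 16 libraries (exact sign-flip test, p = 3.05e-05). With 1 mean per bait this ratio was 0.524 and that of olfactory receptor bins 0.944, per MboI fragment (exact sign-flip tests, p = 0.0312 and 0.8125). The class of other genes includes the predicted genes of the first block.

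Single genes were ranked by reads per 100000 reads of the library, as a mean over the 5 WT baits with read lists, the second Eα bait with its 1 library included. Chd8, a chromatin remodeller, had 108.3, Rpgrip1, a protein of the photoreceptor cilium, had 93.8, and Zfp219, a zinc finger transcription factor, had 68.7. Per unique fragment end of the gene body, Zfp219 was highest of these with 1.37, against 0.46 for Chd8 and 0.39 for Rpgrip1. Tox4, an HMG-box protein, and Mettl3, the catalytic subunit of the RNA m6A methyltransferase, had 0.60 and 0.58, Hnrnpc, which binds nascent RNA, had 0.40, and Supt16, a subunit of the histone chaperone FACT, had 0.31. Olfactory receptor genes ran from 0.14 (Olfr1512) to 0.28 (Olfr1513), a range that held Mettl17 (0.17) and Slc39a2 (0.24) as well. In the ribonuclease A family Ang4 and Ear6 had 0.09 and Rnase13 had 0.33. The predicted gene Gm17079 of the first block had 0.99, second to Zfp219, from 41 reads of 4 distinct pairs. Fragments within 2.5 kb of the start of the 15 other genes in the Mettl17 to Sall2 block were caught 1.73 times as often per unique end as the rest of the block (range 1.10 to 2.67, above 1 in 13 of 13 WT libraries), and 1.87 times as often with distinct pairs. This comparison was also chosen after the profile had been seen and carries no test.

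By 5 kb bin, 171 of the 204 bins had a read in some library, and 32 bins held 50 percent of the reads. The 3 leading bins of each WT bait and the 10 leading bins by the mean over baits came to 14 bins. Of these, 13 lay in the Mettl17 to Sall2 block, 12 overlapped other protein-coding genes and 0 overlapped an olfactory receptor gene. The exception outside the block was chr14:52340001-52345000, between Sall2 and Olfr1513, which had a mean of 19.7 reads per 100000 over the baits and reads in 20 of 22 libraries. Its bait means were 8.49 (Trav17), 12.9 (Trdd2), 14.9 (TEAp) and 20.3 (Eα), and the only library of the second Eα bait had 42.0. In the window counts of INT2, the leading window was chr14:52017501-52022500 at Zfp219, with 20.2, 3.35 and 23.3 reads per 100000 in its libraries. The next was chr14:52412501-52417500 at Olfr1510, with 33.2, 5.49 and 3.40, so a single library set its rank.

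The highest mean was at chr14:52005001-52010000, which holds the ends of Arhgef40 and Zfp219. Its reads per 100000 were 58.7, 73.2 and 59.6 in the Trav17 libraries of WT cells, 4.16, 51.5 and 16.3 with TEAp and 28.1, 55.2 and 25.2 with Trdd2. With Eα they were 19.95, 0 and 9.01, and with the second Eα bait 49.2. On reads, the Trav17 libraries lay above all those of the other baits, and the Eα libraries lay below those of Trdd2 and of the second Eα bait. The place of Trav17 was not kept in distinct pairs. Its first library had 2 of 12675 distinct pairs in this bin, a smaller share than the 14 of 25937 in the second TEAp library. Behind the 429 reads in all libraries were 119 distinct pairs.

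The bin at the start of Hnrnpc, chr14:52100001-52105000, was read in 22 of 22 libraries with 120 distinct pairs, the most of any bin. In WT cells it had 23.9, 35.0 and 51.1 reads per 100000 with Eα, 50.6, 67.0 and 6.30 with Trdd2, 97.9, 13.3 and 4.36 with Trav17 and 4.16, 36.6 and 16.3 with TEAp. The second Eα bait had 19.7 there, below each Eα library, and the baits with 3 libraries overlapped. The bin at the start of Zfp219, chr14:52020001-52025000, had 55.5, 29.9 and 141.1 with Trav17, and the third value came from 194 reads of only 11 distinct pairs. With the other WT baits its values ran from 1.58 to 38.5. The bin across the starts of Rab2b, a small GTPase, and Tox4, chr14:52275001-52280000, was read in 22 of 22 libraries with 119 distinct pairs, and the bin at the end of Sall2, chr14:52310001-52315000, in 21 with 101. The bin within Zfp219, chr14:52010001-52015000, had 97.9, 3.33 and 3.64 reads per 100000 with Trav17, so 1 library made its mean of 35.0. The remaining bins of the 10 were at Arhgef40, Ndrg2 and Tox4 with Mettl3, with means over baits of 19.6, 18.0 and 17.5.

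Profiles of single libraries over the 204 bins were noisy. As a description, distinct pairs per bin in libraries of the same bait and genotype correlated with a median r of 0.46 (0.30 to 0.63, 21 library pairs). Libraries of different baits gave 0.44 (0.18 to 0.66, 183 pairs), and libraries of the same bait and different genotype gave 0.44 (27 pairs). These points share fragment length and uniqueness of sequence.

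A part of the CTCF core motif (CCA, AG and GGC with 2 free bases between each, searched on both strands) occurred in 79 of the 204 flank bins (38.7%), against 20.1% of all bins of the chromosome that hold sequence. Of the 14 named bins 9 held it. The matches below are 1 outside a UTR from each of 8 of these bins, shown so that the letters behind the count can be seen, with 8 bases to each side, 5′ to 3′ on the strand of the match and the match in capitals.
Hnrnpc bin, within the gene, chr14:52101889-52101916, minus strand: cagactcaCCAAAAGAGGGCatcagatc
Zfp219 start bin, upstream of the gene, chr14:52023111-52023138, minus strand: acaagaggCCACGAGGTGGCagcagagg
Zfp219 bin, within the gene, chr14:52012583-52012610, plus strand: gaagttccCCAGAAGGCGGCctaaaatc
Sall2 bin, beyond the gene's end, chr14:52310519-52310546, plus strand: cacagaagCCAGAAGAGGGCatcatatc
Bin between Sall2 and Olfr1513, chr14:52343771-52343798, minus strand: ctaaatggCCACCAGAGGGCactcttaa
Mettl3 exon, chr14:52297079-52297106, minus strand: cagacgctCCAGAAGAGGGCgtcagatc
Rpgrip1 bin, within the gene, chr14:52157390-52157417, plus strand: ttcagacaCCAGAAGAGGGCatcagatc
Bin upstream of Zfp219, no gene, chr14:52028230-52028257, plus strand: caaagaggCCAGAAGAGGGCatctgatt
The matches of the Hnrnpc, Sall2, Mettl3 and Rpgrip1 bins and of the bin upstream of Zfp219 resemble each other beyond the searched bases. Whether copies of a repeated sequence raised the flank's count was not tested. These matches are a description of the sequence and do not show that CTCF binds there.

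To ask whether EACBE affects contacts of such distant chromatin, flank shares were compared between genotypes for each bait. With Eα the share was 1.04%, 0.915% and 1.02% in EACBE-/- libraries, a mean of 0.993% ± 0.068 against 0.987% ± 0.072 in WT. With TEAp it was 0.727%, 0.741% and 0.450% (0.639% ± 0.164 against 0.671% ± 0.058), and with Trav17 1.47%, 1.45% and 1.13% (1.35% ± 0.19 against 1.23% ± 0.16). The genotypes overlapped with each bait, and the differences of 0.01, -0.03 and 0.12 percentage points lay within the spread of replicates (exact permutation tests, two-sided, p = 0.7, 0.9 and 0.5, all 0.9 after adjustment over 3 baits; the smallest possible p was 0.1). The TEAp libraries of EACBE-/- cells split, with replicate 3 below all other TEAp libraries, and without it the difference was 0.06 points. For each bait no flow cell held both genotypes, so flow cell and genotype cannot be told apart. No difference between baits in the effect of the genotype, on this share or on the partners below, passed the test (6 exact permutation tests, p from 0.25 to 0.945).

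Partners in the mapped region made up 49.8% ± 7.1 of flank reads with the TEAp bait in WT cells, in libraries of 56.9%, 42.7% and 49.8%. In EACBE-/- cells the libraries gave 40.7%, 38.9% and 38.9% (39.5% ± 1.1), all below the WT libraries. The difference of -10.3 points reached the smallest p that 3 against 3 allows (exact permutation test, p = 0.1, 0.3 after adjustment over 3 baits). With distinct pairs it was -3.60 points (exact permutation test, p = 0.2). With Eα the partner share was 31.8% ± 7.4 in WT and 28.9% ± 7.5 in EACBE-/- (p = 0.9, exact permutation test), and with Trav17 31.6% ± 0.8 and 29.3% ± 4.1 (p = 0.4, exact permutation test), a difference of -2.31 points that was -6.23 with distinct pairs (p = 0.2, exact permutation test). In replicate 1 of EACBE-/- with Eα, 56.4% of flank reads had both fragments in the flank, above the 24.6% to 34.8% of the other Eα libraries. That library had 50 distinct flank pairs, the fewest of all.

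Single bins gave no flank call. On reads per 5 kb bin, edgeR's quasi-likelihood test with Benjamini-Hochberg adjustment over all tested bins of chromosome 14 called 0 of 82 flank bins with Eα, where 0.866% of 2079 tested bins were called. With TEAp it called 0 of 95 flank bins, against 1.55% of 3225 bins, and with Trav17 0 of 101, against 0.0663% of 3017. At an unadjusted p under 0.05 there were 1, 0 and 3 flank bins, against 6.97%, 6.42% and 5.90% of all bins tested, and DESeq2 called 0 flank bins as well. The other flank bins had under 10 reads in the 6 libraries and were not tested. The median log2 difference of EACBE-/- over WT was -0.75 over flank bins and -0.68 over all tested bins with Eα, 0.03 and -0.20 with TEAp and 0.34 and -0.30 with Trav17. In counts simulated at a dispersion of 1.62 (Eα), 2.17 (TEAp) and 1.96 (Trav17), 0% of bins changed 16-fold were called. The same test called 18, 50 and 2 bins of chromosome 14 in the real libraries. The simulation therefore cannot set which changes in a single bin were detectable.

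The bin nearest to the threshold, chosen after its values were seen, was chr14:52345001-52350000 at the end of Olfr1513 with the Eα bait, at an adjusted p of 0.197 (edgeR). It had 7.98, 0 and 0 reads per 100000 in WT and 188.7, 0 and 10.9 in EACBE-/- libraries, and the highest value came from 27 reads of 1 distinct pair. At the Hnrnpc bin, EACBE-/- libraries had 209.7, 6.31 and 68.9 with Eα against 23.9 to 51.1 in WT, and the genotypes overlapped. At the Rab2b and Tox4 bin the genotypes overlapped with Trav17 (55.6, 66.3 and 43.4 against 16.3, 73.2 and 16.0 in WT) and with TEAp (13.98, 39.5 and 17.04 against 25.98, 4.07 and 8.15).

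Libraries of the genotypes did not overlap in 8 of the 82 flank bins tested with Eα, where 9.96% of all tested bins did not, in 11 of 95 with TEAp (9.05% of all) and in 9 of 101 with Trav17 (7.39% of all), shares near those of the chromosome. The named bins were chosen for high WT reads, a choice that by itself favours WT above EACBE-/- in them. Among these bins, EACBE-/- libraries lay below WT at the Rab2b and Tox4 bin with Eα (13.98, 12.6 and 10.9 against 14.6, 38.5 and 48.1). They also lay below WT at the Arhgef40 bin chr14:51990001-51995000 with Trav17 (13.1, 17.5 and 7.90 against 65.3, 53.2 and 21.1). With TEAp they lay below WT at the Tox4 and Mettl3 bin chr14:52295001-52300000 (5.82, 3.95 and 2.13 against 11.4, 13.6 and 9.96) and at the Rpgrip1 bin chr14:52155001-52160000 (11.7, 1.32 and 0 against 20.8, 25.8 and 23.5). They lay above WT at chr14:52025001-52030000, upstream of Zfp219, with Trav17 (58.9, 31.4 and 15.8 against 13.1, 3.33 and 7.998). Over the 14 named bins and 3 baits the adjusted p ran from 0.535 to 0.999 in 41 tests (edgeR).

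**Figure D5:**
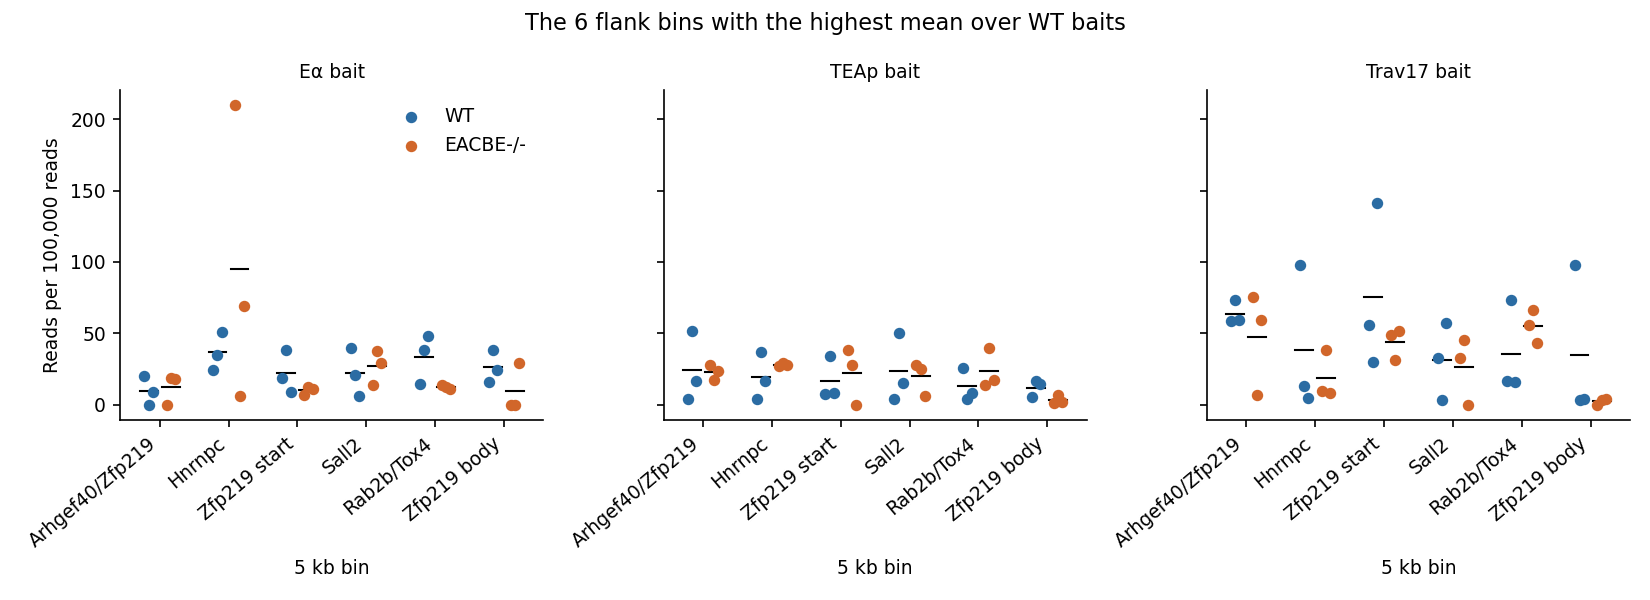
Reads per 100000 reads in the 6 flank bins with the highest mean over WT baits, for the 3 baits with both genotypes; each point is a library (WT blue, EACBE-/- orange) and each line the mean of 3. Libraries spread widely around some means: the 94.97 at Hnrnpc with the Eα bait in EACBE-/- cells came from values of 209.7, 6.31 and 68.9.

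The liver libraries could not be set beside these. The tables used for the 8 liver libraries list pairs of bins downstream of the flank alone, so contacts of the flank in liver were not analysed here.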

How the data were processed

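Data on 3-way contacts of 33 3C-HTGTS libraries were used. The authors trimmed reads with fastp 0.20.0 and Cutadapt 1.18, merged pairs, split them at MboI sites and aligned the pieces with Bowtie2 2.4.5 to MboI-digested mm10, used SAMtools 1.9 and bedtools 2.29.2, removed self-ligated, off-target and continuous fragments, and for contact matrices took the first 2 fragments behind the bait or combinations of the fragments of a read. Which of these the files hold is not given in the sources used here, and each read was listed once, with 2 fragments. The deposited files used here were read lists (22 libraries, 1 line per read, each fragment with its coordinates, a unit of its own) and, for INT2, counts of reads per pair of 5 kb windows, not normalized. Where both were held (9 libraries), flank counts from windows and reads were equal. The deposited signals scaled by the authors were not used. Fragment edges matched GATC sites of GRCm38 in 100% of cases, and genes came from GENCODE for that build.

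A fragment was assigned to a bin by its midpoint. Shares, densities and partners were compared with exact permutation or sign-flip tests, and reads per bin with edgeR 4.0.16 (R 4.3.3; library size all reads; bins with at least 10 reads over 6 libraries; adjusted p under 0.05). In a test on simulated data at 10 times the depth and a dispersion of 0.1, edgeR called 88.5% (Eα, 2079 bins), 92.5% (TEAp, 3225 bins) and 87% (Trav17, 3017 bins) of bins changed 4-fold. This setting is easier than the dispersions of 1.62 to 2.17 given above, at which 0% of bins changed 16-fold were called. It therefore does not measure what could be detected in these libraries. Alternatives were distinct pairs, other denominators, overlap in place of midpoint, TMM, DESeq2 1.42.0, no filter, 50 kb bins, leaving out libraries or baits, and a replicate block. Scaling to unique fragment ends (32 bases), the blocks, gene starts, distances, partners by region, reads at the bait and bins without overlap between genotypes were added after seeing the data. Named bins were the 3 leading bins of each WT bait and the 10 with the highest mean over baits, with any bin past the threshold. Members and lists were chosen with earlier results of these data known. Depth ran from 14307 to 328127 reads per library, and 1.45 to 10.3 flank reads per distinct pair. Python 3.11.15, numpy 2.4.6, pandas 2.3.3 and scipy 1.17.1 were used. Liver, whose tables start downstream of the flank, and the order of fragments behind the bait, which are listed by position, were not analysed here. Deviations of same-numbered libraries of the genotypes correlated weakly (r from -0.03 to 0.05 over 9 pairs), and 6 of the 9 correlated best with their own number.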

Additional observations from a re-analysis of the deposited data

How the results depend on the processing

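The 3 density comparisons and the lower density of bins without a gene kept their direction and their side of the threshold in every alternative run. The difference between baits was 0.74 percentage points (highest minus lowest mean) and was lost as a percent of reads outside the mapped region (0.45 points, p = 0.122, exact permutation test). It was 0.72 points without reads at the bait (p = 0.00184, exact permutation test), where INT2 was no longer lowest, and held leaving out each replicate number (0.67 to 0.81). With distinct pairs, which leave out INT2, the difference was 0.55 points (p = 0.00409, exact permutation test), and neighbouring baits overlapped. The olfactory receptor comparison, -0.18 on the log2 scale, became -0.56 per unique fragment end (p = 0.0110, exact sign-flip test, lower in 13 of 16 libraries), 0.0731 without the Trav17 bait, and -0.51 to 0.15 leaving out each replicate number.

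The genotype difference in flank share changed sign with Eα without reads within the flank (-0.13 points) and with Trav17 as a percent of reads outside the mapped region (-0.0631). Leaving out each library it ran from -0.0352 to 0.0451 (Eα), -0.0823 to 0.0635 (TEAp) and 0.03 to 0.23 (Trav17). In partners of the mapped region, the Eα difference became 5.17 points without reads within the flank, and leaving out each library gave -7.17 to 0.13 (Eα), -13.8 to -6.76 (TEAp) and -4.57 to -0.60 (Trav17). With distinct pairs the partner differences were -0.62 (Eα), -3.60 (TEAp) and -6.23 (Trav17). None of these passed the threshold, which 3 against 3 libraries cannot reach.

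Bins called on chromosome 14 were 18 (Eα), 50 (TEAp) and 2 (Trav17). They were 47 with Eα and 8 with Trav17 for distinct pairs, 15 with TEAp and 5 with Trav17 for 50 kb bins, 32 with Trav17 in DESeq2, and 8 to 19, 30 to 51 and 1 to 4 leaving out each library (8 without WT replicate 3 with Eα, 30 without EACBE-/- replicate 2 with TEAp, 4 without WT replicate 3 with Trav17). Of the Eα calls 10 were higher and 8 lower in EACBE-/-, against 13 and 2 with TMM, which moved the median log2 difference of all bins from -0.68 to -0.49. With TEAp they were 29 and 21, against 29 and 7. No flank bin was called in any of these settings. The replicate block gave 16, 50 and 2 calls and changed no other call. The causes of these changes were not tested. The flank held 50 to 267 distinct pairs per library, and depth and spread between libraries were not separated as limits on single bins. Comparisons with liver and of the first against the second fragment behind the bait were planned and not run.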
